A study of Mus musculus with 18 samples.

Results

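The matrix protease genes and their inhibitors were examined in the skeletal muscle of aging mice. The members were all genes of the RNA-seq table whose symbol begins with Mmp, Timp, Adamts or Adamtsl followed by a number, which gave 51 of the 23425 genes listed: 23 Mmp, 4 Timp, 19 Adamts and 5 Adamtsl genes. The rule reads gene symbols alone, and it was set with earlier results of these data known. RNA-seq was made from whole hindlimb muscle of female C57BL/6J mice at 2 months (young, 2-m), 20 months (aged, 20-m) and 28 months (superaged, 28-m), with 3 mice for each age and 1 library for each mouse. The mice carried no genetic change or treatment, and the ages differ by animal, so each mouse was seen at 1 age only. DNA of the same animals, pooled over the 3 mice of each age, was enriched for methylated fragments with a protein domain that binds methylated CpG sites and then sequenced (MBD-seq), as was DNA of their splenic T cells. All RNA values are normalized counts, which are reads per gene divided by 1 size factor for the library.

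The matrix metalloproteinases (MMPs) are zinc enzymes that cut collagens, gelatin, proteoglycans and other proteins between cells, and most are made as inactive precursors. The 4 tissue inhibitors of metalloproteinases (TIMPs) bind the active site of these enzymes. The ADAMTS proteases carry thrombospondin repeats that anchor them in the matrix. Some of them trim procollagen before it forms fibrils and others cut the large proteoglycans. ADAMTS-like proteins share the repeats but lack the catalytic domain, and several bind fibrillin microfibrils. In muscle, these enzymes and inhibitors are made largely by fibroblasts and other cells between the fibres, and they remodel the connective tissue around the fibres during growth and repair.

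The members lie on many chromosomes, with 1 dense cluster. On chromosome 9 of the GRCm38.p6 assembly, 10 Mmp genes (Mmp1a, Mmp1b, Mmp3, Mmp7, Mmp8, Mmp10, Mmp12, Mmp13, Mmp20 and Mmp27) lie within 427 kb, at chr9:7272514-7699585. Promoter sequences of RefSeq were matched for 36 of the 51 members. The 250 bases before the gene start are printed for 2 members of the cluster and for 2 members elsewhere that changed in opposite directions with age. Capitals mark motifs that were searched on both strands. The letters TGANTCA are a form of the AP-1 motif. TATAAA is the core of a promoter's TATA element. GGGCGG is the GC box, and on the other strand it reads CCGCCC. In the printed sequences no match overlaps another.
Mmp3 (chr9:7445572-7445821, plus strand): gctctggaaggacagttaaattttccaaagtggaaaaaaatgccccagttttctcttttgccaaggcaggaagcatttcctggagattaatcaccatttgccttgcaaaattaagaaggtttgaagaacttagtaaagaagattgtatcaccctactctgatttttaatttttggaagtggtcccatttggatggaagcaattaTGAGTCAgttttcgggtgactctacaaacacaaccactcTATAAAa
Mmp13 (chr9:7272264-7272513, plus strand): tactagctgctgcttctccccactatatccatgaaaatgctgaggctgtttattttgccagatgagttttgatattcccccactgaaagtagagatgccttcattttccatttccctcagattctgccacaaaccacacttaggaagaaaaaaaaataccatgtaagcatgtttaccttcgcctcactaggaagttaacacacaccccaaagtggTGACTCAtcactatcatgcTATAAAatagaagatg
Adamts2 (chr11:50601835-50602084, plus strand): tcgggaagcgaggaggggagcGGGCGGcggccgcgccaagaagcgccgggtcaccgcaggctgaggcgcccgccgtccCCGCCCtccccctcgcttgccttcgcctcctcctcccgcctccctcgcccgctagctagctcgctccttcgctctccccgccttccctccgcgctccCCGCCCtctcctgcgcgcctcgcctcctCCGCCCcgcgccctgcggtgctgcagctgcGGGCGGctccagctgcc
Timp4 (chr6:115252206-115252455, minus strand): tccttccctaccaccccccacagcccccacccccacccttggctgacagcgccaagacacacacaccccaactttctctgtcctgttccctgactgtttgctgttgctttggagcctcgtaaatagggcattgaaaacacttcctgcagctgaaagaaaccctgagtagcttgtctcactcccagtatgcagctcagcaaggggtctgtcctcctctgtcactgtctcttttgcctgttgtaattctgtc

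The promoters of the cluster differed in composition from the others. Of the 10 promoters in the cluster, 7 held both TGANTCA and TATAAA, and 0 held GGGCGG, with a median GC content of 40.2%. Of the 26 matched promoters outside it, 0 held TGANTCA, 3 held TATAAA and 20 held GGGCGG, with a median GC content of 64.8%. Among the 27025 promoters of the table, TGANTCA was found in 6.87%, TATAAA in 13.0% and GGGCGG in 32.9%. The Adamts2 promoter held 5 GC boxes, and the Timp4 promoter held none of the 3 motifs.

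Not all members were read in muscle. Of the 51 members, 36 had a mean of at least 10 normalized counts over the 9 libraries and were tested, namely 13 Mmp, all 4 Timp, 14 Adamts and all 5 Adamtsl genes. From the cluster, Mmp3, Mmp8 and Mmp13 were tested. Mmp8 and Mmp13 passed only through the first 2-m library, and Mmp16 had a mean of at least 10 at 1 age only. The 15 untested members were Mmp1a, Mmp1b, Mmp7, Mmp10, Mmp12, Mmp20, Mmp21, Mmp24, Mmp25, Mmp27, Adamts13, Adamts16, Adamts17, Adamts18 and Adamts19. Their highest value in any library was 26.4 normalized counts, for Adamts17 in a 2-m library, and their highest mean was 9.36, for Mmp12. Mmp1b and Mmp7 had no read in any library, and a count of 0 allows up to 1.63 to 6.69 normalized counts (3 reads), depending on the library.

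Libraries held 33051271 to 121485345 reads. The 3 libraries numbered 3, 1 at each age, stood apart, with normalized counts that summed to 62400000 to 66200000 against 87700000 to 98100000 in the other 6. The first 2-m library also stood apart by its marrow and bone genes, described with Mmp8, Mmp9 and Mmp13. The second 2-m library differed from the other young ones by fewer tendon marker counts (a sum of 13090 against 32040 and 33180) and more of the slow-fibre gene Myh7 (44701 against 2773 and 8400). Without that library 14 members (38.9%, against 15.1% of all genes) were called at 20 months and 9 (25%, against 13%) at 28 months. Of these, 11 and 8 were also called with all libraries. The 8 markers of muscle fibres were detected at every age and summed to 5455000 to 7287000 normalized counts, as a library from muscle should.

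Per kilobase of transcript, Timp2, Timp3 and Mmp2 were the most abundant members. At 2 months Timp2 had 1661 ± 339, Timp3 1644 ± 67.8 and Mmp2 949 ± 238 normalized counts per kb (mean ± SD, n = 3), and Timp2 and Timp3 did not differ beyond their spread. Adamts1, a protease of aggrecan and versican, followed with 334 ± 35.3 normalized counts per kb, near Mmp15 with 290 ± 8.53 and Adamtsl5 with 281 ± 64.0. At 20 months Timp3 led with 1817 ± 6.38 normalized counts per kb, ahead of Timp2 with 1222 ± 45.3 and Mmp2 with 518 ± 44.7. At 28 months Timp3 had 1601 ± 98.0, Timp2 1173 ± 65.7 and Mmp2 540 ± 92.6 normalized counts per kb. Of the other members tested, the lowest mean at any age was 1.08 normalized counts per kb, for Mmp8 at 28 months.

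Many of these genes were lower in aged than in young muscle. At 20 months against 2 months, 12 of the 36 tested members fell and 2 rose (limma on log2(normalized count + 1), adjusted p under 0.05 over the 13183 genes tested). The background over all tested genes was 7.12% lower and 9.43% higher, against 33.3% and 5.56% of the tested members. The median log2 fold change was -0.77 over the tested members and -0.02 over all tested genes. At 28 months against 2 months, 8 members fell and 1 rose, which was 22.2% and 2.78%, beside a background of 6.24% lower and 7.53% higher. The median log2 fold change was then -0.45 over the members and -0.01 over all genes. The medians include Mmp8, Mmp13 and Mmp16, which reached a mean of 10 at 2 months only and so favour a negative sign. Both comparisons share the 2-m libraries. In both directions together, 38.9% of the tested members and 16.5% of all genes were called at 20 months, and 25% and 13.8% at 28 months. Without the first 2-m library 8 members (22.2%, against 10.7% of all genes) were called at 20 months and 4 (11.1%, against 8.41%) at 28 months. Without the third 20-m library 9 members (25%, against 12.7%) were called at 20 months, and without the third 2-m library 5 (13.9%, against 10.6%) at 28 months. With all libraries numbered 3 left out, 8 members (22.2%, against 8.34%) were called at 20 months and 2 (5.56%, against 5.26%) at 28 months, the latter a share near the background. With libraries rescaled to 1 common sum, 5 members (13.9%, against 2.95%) were called at 20 months and 5 (13.9%, against 3.16%) at 28 months. The rises of Timp4 and Adamtsl4 were not called with that rescaling. In whole muscle, fewer cells of a type and less RNA in each cell cannot be told apart.

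**Figure D1:**
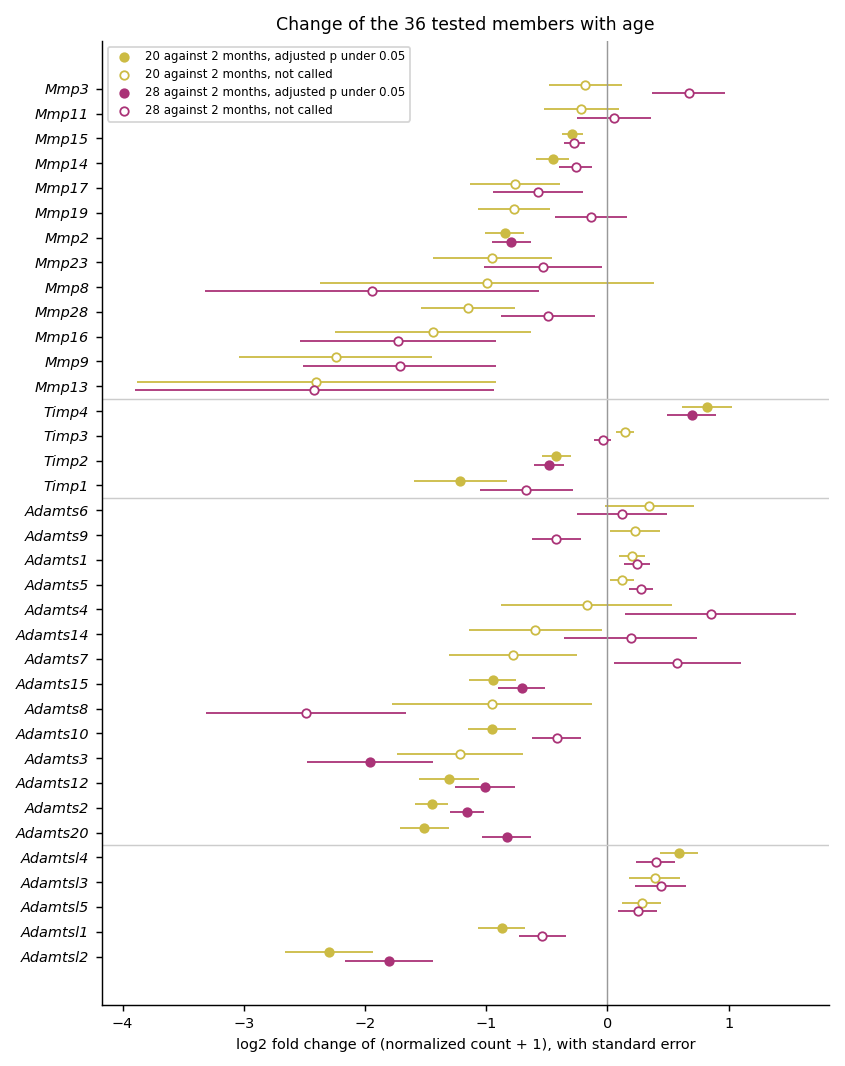
Log2 fold change of each of the 36 tested members at 20 and 28 months against 2 months, with its standard error (3 libraries per age), grouped from top to bottom as Mmp, Timp, Adamts and Adamtsl genes. Filled points have an adjusted p under 0.05: 14 at 20 months and 9 at 28 months, of which Timp4 at both ages and Adamtsl4 at 20 months lie to the right of 0.

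The gelatinase Mmp2 fell at both later ages. Mmp2 (chr8:92827290-92853421) cuts denatured collagen and basement membrane collagen. Its 2-m libraries held 2782, 2259 and 3704 normalized counts, the 20-m libraries 1741, 1470 and 1567, and the 28-m libraries 1488, 1505 and 1989. Every 2-m library was above every older one, and the 20-m and 28-m ranges overlapped. The log2 fold change was -0.85 ± 0.16 (SE, limma adjusted p = 0.0041) at 20 months, or 1.80-fold lower, and -0.79 ± 0.16 (adjusted p = 0.0065) at 28 months. Both calls of Mmp2 held in 20 of 21 alternative settings, among them all 9 that left out 1 library, and were lost with libraries rescaled to 1 common sum (adjusted p = 0.085 and 0.18). Mmp2 made up 44.97% to 64.3% of the Mmp sum per kb in the 2-m libraries, 49.96% to 52.5% in the 20-m libraries and 43.9% to 53.4% in the 28-m libraries.

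The membrane-bound proteases Mmp14 and Mmp15 fell at 20 months by less than Mmp2 did on the log2 scale, a difference that was not tested. Mmp14 encodes the membrane enzyme that, together with TIMP2, activates the MMP2 precursor at the cell surface. Mmp14 had 709, 615 and 569 normalized counts at 2 months, 499, 439 and 442 at 20 months and 533, 609 and 442 at 28 months. The 2-m and 20-m libraries did not overlap, while the 28-m libraries spanned the range between them. Its log2 fold change was -0.45 ± 0.14 (limma adjusted p = 0.039) at 20 months and -0.26 ± 0.14 (adjusted p = 0.23) at 28 months. Mmp15, a related membrane protease, had 1213, 1256 and 1286 normalized counts at 2 months, 1026, 1014 and 1029 at 20 months and 1120, 1048 and 946 at 28 months. All older libraries were below all young ones. Mmp15 had a log2 fold change of -0.29 ± 0.09 (adjusted p = 0.040) at 20 months and -0.27 ± 0.09 (adjusted p = 0.057) at 28 months. The calls of Mmp14 and Mmp15 at 20 months held in 12 and 13 of 21 alternative settings, and in 3 of the 9 that left out 1 library. At 28 months Mmp15 was called with a replicate block (adjusted p = 0.045), with a batch term for the libraries numbered 3 (0.040), with quantile normalization (0.048) and by DESeq2 on recovered reads (0.049). The membrane-bound Mmp16 and Mmp17 had log2 fold changes of -1.44 ± 0.81 and -0.76 ± 0.37 at 20 months and were not called.

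**Figure D2:**
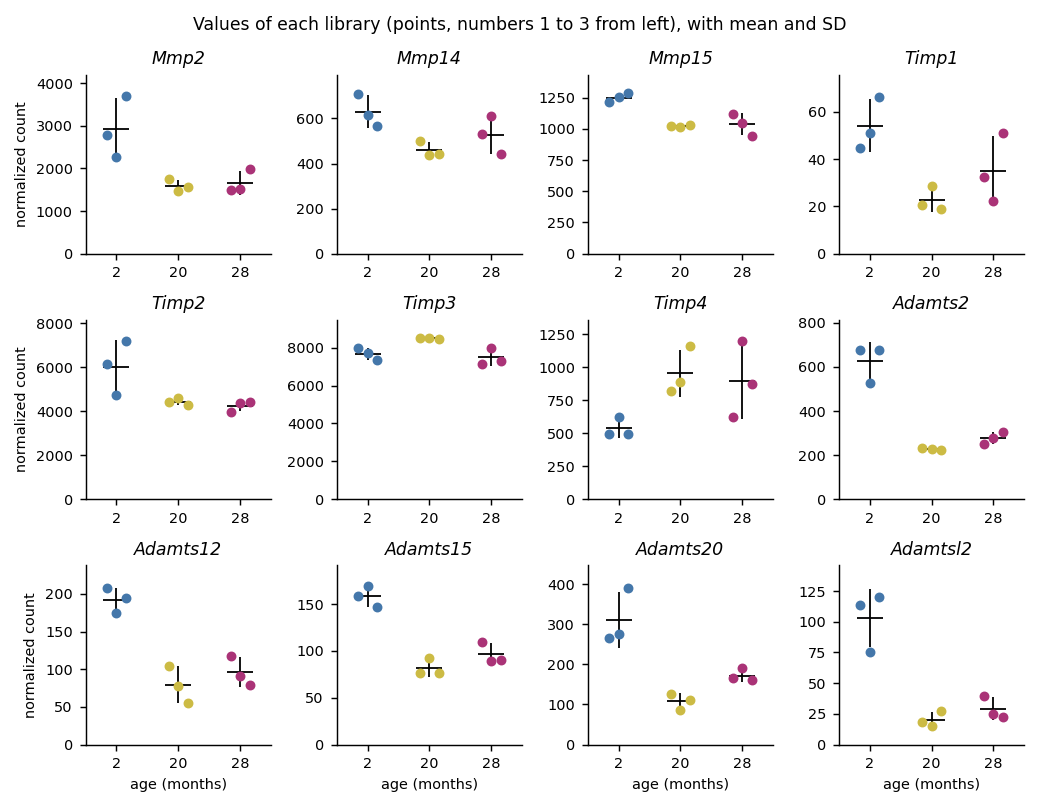
Normalized counts of 12 members in each of the 9 libraries by age, as points with the mean (bar) and SD (line), on axes that start at 0. Adamts2, Mmp2, Mmp15, Timp2, Adamts12, Adamts15, Adamts20 and Adamtsl2 had all 2-m libraries above all older ones, and Timp4 had all 2-m libraries below them.

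Mmp9 and the collagenases Mmp8 and Mmp13 were high in 1 library. Mmp9, the second gelatinase and abundant in neutrophils and osteoclasts, had 809 normalized counts in the first 2-m library and 91.6 and 85.2 in the other two. It had 18.7, 54.0 and 55.6 at 20 months and 20.9, 101 and 81.2 at 28 months. The 2-m libraries lay above the 20-m libraries without overlap but overlapped the 28-m libraries. For Mmp9 the log2 fold change was -2.24 ± 0.79 (limma adjusted p = 0.072) at 20 months and -1.71 ± 0.79 (adjusted p = 0.18) at 28 months. Without the first 2-m library the value at 20 months was -1.18 (adjusted p = 0.25). It was called at 20 months by edgeR on recovered reads (-2.82, adjusted p = 0.036), without the second (-2.75, adjusted p = 0.043) or the third 2-m library (-2.80, adjusted p = 0.046) and with libraries rescaled to 1 common sum (-2.21, adjusted p = 7.5e-05). At 28 months Mmp9 was called with that rescaling only (-1.64, adjusted p = 0.011).

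Mmp8 and Mmp13 followed the same library. Mmp13, a collagenase of cartilage and bone, had 334 normalized counts in the first 2-m library and 0 to 13.2 in the other 8. Its log2 fold change was -2.40 ± 1.48 (limma adjusted p = 0.29) at 20 months and -2.42 ± 1.48 (adjusted p = 0.32) at 28 months, and DESeq2 on recovered reads called it at 20 months (-4.83, adjusted p = 0.036). Mmp8, the collagenase of neutrophils, had 129 normalized counts in that library and 0 to 6.75 elsewhere. The 8 markers of neutrophils and marrow summed to 5356 normalized counts in that library and to 16.8 to 86.1 in the others, where Elane and Mpo had no read at 20 or 28 months and Camp none at 28 months. The 8 markers of bone and cartilage summed to 1984 in that library and to 148 and 156 in the other 2-m libraries. At 20 months they summed to 18.6 to 54.2 and at 28 months to 41.7 to 58.5. Bglap had no read at 20 or 28 months and Sp7 none at 28 months. Of the 5 tested, 1 (Acp5) fell at each later age, beside 7.12% and 6.24% of all tested genes. The part of marrow or bone in the values of Mmp8, Mmp9 and Mmp13 was not tested.

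**Figure D3:**
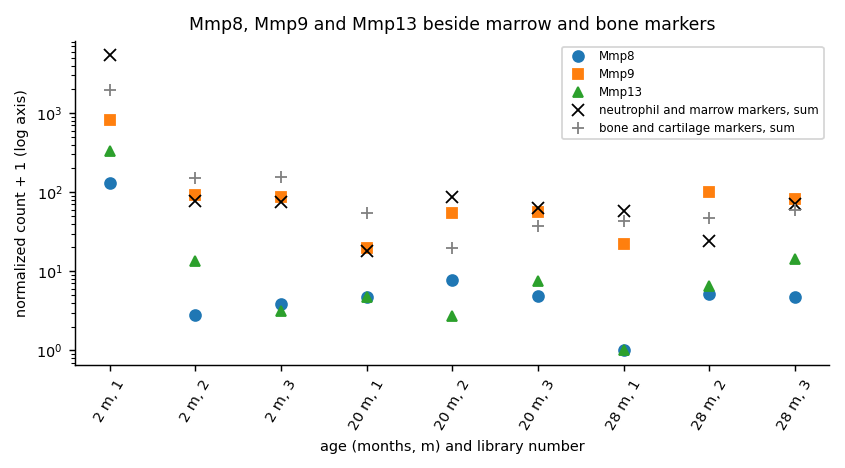
Normalized counts plus 1 (log axis) of Mmp8, Mmp9 and Mmp13 and the summed markers of neutrophils and marrow and of bone and cartilage, in each of the 9 libraries. The first 2-m library (leftmost) held 809 counts of Mmp9, 334 of Mmp13 and 129 of Mmp8, with marker sums of 5356 and 1984.

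Of the other Mmp genes, none was called in the limma fit of all 9 libraries with age as the only term. In other settings Mmp19 was called at 20 months without the first 20-m library (log2 fold change -1.05, adjusted p = 0.048) and Mmp23 without the second 2-m library (-1.50, adjusted p = 0.034). With all libraries these genes had -0.77 ± 0.30 (adjusted p = 0.095) and -0.95 ± 0.49 (adjusted p = 0.21). Mmp19 shares exon sequence with Tmem198b on the opposite strand. Mmp28 (epilysin) had 84.5 to 89.2 normalized counts at 2 months, 25.3, 28.0 and 80.1 at 20 months and 48.3 to 71.7 at 28 months, so that 1 library at 20 months was near the young level. Its log2 fold change at 20 months was -1.15 ± 0.39 (limma adjusted p = 0.061). It was called at 20 months with a replicate block, with a batch term for the libraries numbered 3, without those libraries and without the third 20-m library. Mmp28 shares exon sequence with 1700020L24Rik on the opposite strand. Mmp3, a stromelysin that cuts many matrix proteins, had 53.5, 65.2 and 57.0 normalized counts at 2 months, 41.1, 64.1 and 51.2 at 20 months and 68.3, 85.6 and 140 at 28 months. Its 28-m libraries lay above all others, and its log2 fold change at 28 months against 2 months was 0.67 ± 0.30 (adjusted p = 0.17). Both genes were picked for mention after their values were seen.

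Among the ADAMTS proteases, 5 of 14 tested fell at each later age, beside 7.12% of all tested genes at 20 months and 6.24% at 28 months. The procollagen N-proteinases Adamts2, Adamts3 and Adamts14 remove the amino-terminal propeptide of fibrillar collagens. Adamts2 (chr11:50602085-50807573), whose promoter is printed above, had 678, 525 and 678 normalized counts at 2 months. It had 230, 228 and 224 at 20 months and 252, 279 and 306 at 28 months. All young libraries were above all older ones, and all 28-m libraries were above all 20-m libraries. The log2 fold change of Adamts2 was -1.45 ± 0.14 (limma adjusted p = 4.1e-05) at 20 months, or 2.73-fold lower, and -1.16 ± 0.14 (adjusted p = 0.00018) at 28 months. Both calls of Adamts2 held in all 21 alternative settings.

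The other N-proteinases were read less and varied more. Adamts3 had 156, 47.6 and 165 normalized counts at 2 months, 44.8, 62.4 and 33.8 at 20 months and 13.3, 30.4 and 47.2 at 28 months. The second 2-m library was within the 20-m range but just above the 28-m libraries. Adamts3 had a log2 fold change of -1.22 ± 0.52 (limma adjusted p = 0.13) at 20 months and -1.96 ± 0.52 (adjusted p = 0.026) at 28 months. The call at 28 months held in 5 of the 9 settings that left out 1 library and was lost without the libraries numbered 3. At 20 months Adamts3 was called by DESeq2 (log2 fold change -1.41, adjusted p = 0.021) and without the second 2-m library (-1.79, adjusted p = 0.021). Adamts14 had 11.1 to 56.4 normalized counts over all libraries, with overlap between the 2-m libraries and both older ages and no call.

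Adamts15 and Adamts20, which can cut large proteoglycans, fell at both later ages, while Adamts1, Adamts4, Adamts5, Adamts8 and Adamts9, which share that role, did not pass the test. Adamts20 had 265, 275 and 391 normalized counts at 2 months, 127, 86.1 and 111 at 20 months and 165, 191 and 160 at 28 months. Its 3 ages did not overlap, with the 28-m libraries between the others. The log2 fold change of Adamts20 was -1.51 ± 0.20 (limma adjusted p = 0.00041) at 20 months and -0.83 ± 0.20 (adjusted p = 0.017) at 28 months. Adamts15 had 158, 169 and 147 normalized counts at 2 months, 76.6, 92.8 and 76.3 at 20 months and 110, 89.8 and 90.6 at 28 months. The young libraries were above all older ones. Adamts15 had a log2 fold change of -0.95 ± 0.19 (adjusted p = 0.0064) at 20 months and -0.71 ± 0.19 (adjusted p = 0.030) at 28 months. The call of Adamts15 at 20 months was lost with libraries rescaled to 1 common sum and without the libraries numbered 3. Its call at 28 months held in 12 of 21 alternative settings and in 4 of the 9 that left out 1 library, and that of Adamts20 in 16 of 21.

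Adamts1 and Adamts5 are adjacent on chromosome 16. Adamts1 had 1517 to 1828 normalized counts at 2 months, 1766 to 2085 at 20 months and 1710 to 2070 at 28 months, with overlap between all ages. Adamts5, the main aggrecanase of mouse cartilage, had 606 to 662, 670 to 757 and 738 to 805 normalized counts. Its log2 fold change at 28 months was 0.28 ± 0.10 (limma adjusted p = 0.080). Adamts8 had 1133 normalized counts in the second 2-m library and 15.2 to 199 in the other 8. Its log2 fold change at 28 months was -2.48 ± 0.83 (adjusted p = 0.065), and it was called without the third 2-m or the second 28-m library, with a replicate block and with libraries rescaled to 1 common sum. The high 2-m mean of Adamts8 rests on that library, the one with low tendon markers and high Myh7, and the part of these in its value was not tested.

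Adamts12 and Adamts10 complete the ADAMTS genes that fell. Adamts12, which cuts cartilage oligomeric matrix protein, had 207, 174 and 194 normalized counts at 2 months, 105, 77.6 and 55.6 at 20 months and 118, 91.2 and 79.3 at 28 months. The young libraries were above all others. Adamts12 had a log2 fold change of -1.31 ± 0.25 (limma adjusted p = 0.0042) at 20 months and -1.01 ± 0.25 (adjusted p = 0.018) at 28 months, and the latter call held in 16 of 21 alternative settings. Adamts10, which binds fibrillin microfibrils, had 214, 192 and 199 normalized counts at 2 months, 99.0, 87.7 and 127 at 20 months and 121, 163 and 172 at 28 months. The young libraries were again the highest. Adamts10 had a log2 fold change of -0.95 ± 0.20 (adjusted p = 0.0071) at 20 months and -0.42 ± 0.20 (adjusted p = 0.19) at 28 months, and its call at 20 months was lost with libraries rescaled to 1 common sum.

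The ADAMTS-like genes moved in both directions. Adamtsl2, a microfibril-binding protein, had 114, 75.8 and 120 normalized counts at 2 months, 18.7, 15.2 and 27.2 at 20 months and 39.8, 24.9 and 22.6 at 28 months. Every young library was above every older one. The log2 fold change of Adamtsl2 was -2.30 ± 0.36 (limma adjusted p = 0.0014) at 20 months, or 4.91-fold lower, and -1.80 ± 0.36 (adjusted p = 0.0065) at 28 months. At 20 months this was the largest change among the called members, and at 28 months that of Adamts3 was larger. The call of Adamtsl2 at 28 months was lost without the libraries numbered 3.

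Adamtsl1 had 450, 361 and 465 normalized counts at 2 months, 232, 209 and 252 at 20 months and 260, 233 and 406 at 28 months. The 2-m and 20-m libraries did not overlap, and the third 28-m library was within the young range. Adamtsl1 had a log2 fold change of -0.87 ± 0.19 (limma adjusted p = 0.0099) at 20 months and -0.54 ± 0.19 (adjusted p = 0.088) at 28 months. Adamtsl4, a fibrillin-binding protein of the suspensory fibres of the lens, had 620, 904 and 650 normalized counts at 2 months. It had 1225, 874 and 1170 at 20 months and 873, 923 and 1034 at 28 months. The second 2-m library overlapped both older ages. Adamtsl4 had a log2 fold change of 0.59 ± 0.16 (adjusted p = 0.023) at 20 months and 0.40 ± 0.16 (adjusted p = 0.12) at 28 months, and its call at 20 months held in 14 of 21 alternative settings. The call of Adamtsl1 at 20 months was lost with libraries rescaled to 1 common sum. At 28 months Adamtsl1 was called without the third 28-m library (-0.78, adjusted p = 0.015), with a replicate block (-0.54, adjusted p = 0.025) and with a batch term for the libraries numbered 3 (adjusted p = 0.031), and Adamtsl4 without the second 2-m library (0.57, adjusted p = 0.020). Adamtsl3 and Adamtsl5 had log2 fold changes of 0.25 to 0.44 at both ages and were not called.

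The 4 inhibitors did not move together. Timp2, which inhibits most MMPs and takes part in MMP2 activation, had 6145, 4730 and 7176 normalized counts at 2 months, 4403, 4603 and 4277 at 20 months and 3974, 4363 and 4405 at 28 months. The young libraries were above all others, the second by a small margin. For Timp2 the log2 fold change was -0.42 ± 0.12 (limma adjusted p = 0.032) at 20 months and -0.48 ± 0.12 (adjusted p = 0.020) at 28 months. These calls held in 12 and 16 of 21 alternative settings.

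Timp4, an inhibitor abundant in heart and muscle, rose. Timp4 (chr6:115244444-115252205) had 497, 619 and 495 normalized counts at 2 months, 820, 888 and 1157 at 20 months and 622, 1197 and 870 at 28 months. All older libraries were above all young ones, the first 28-m library by a small margin. The log2 fold change of Timp4 was 0.82 ± 0.20 (limma adjusted p = 0.016) at 20 months, or 1.77-fold higher, and 0.70 ± 0.20 (adjusted p = 0.039) at 28 months. The calls held in 17 and 13 of 21 alternative settings. Timp4 lies within Syn2 on the opposite strand and shares exon sequence with it, and Syn2 had 19.0 to 104 normalized counts.

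Timp3, an inhibitor that binds to the matrix and also acts on several ADAMTS enzymes, had 8000, 7718 and 7366 normalized counts at 2 months, 8507, 8533 and 8473 at 20 months and 7141, 8012 and 7325 at 28 months. The 20-m libraries lay above both other ages. Its log2 fold change was 0.15 ± 0.07 (limma adjusted p = 0.18) at 20 months and -0.04 ± 0.07 (adjusted p = 0.76) at 28 months. Timp3 lies within Syn3 on the opposite strand and shares exon sequence with it, and Syn3 had 35.2 to 76.6 normalized counts. Timp1, the inhibitor induced in injury and inflammation, was the least abundant of the 4 and had 44.6, 51.1 and 66.4 normalized counts at 2 months, 20.5, 28.7 and 19.1 at 20 months and 32.3, 22.1 and 50.96 at 28 months. The 20-m libraries were below all young ones, and the 28-m libraries overlapped both. Timp1 had a log2 fold change of -1.21 ± 0.38 (adjusted p = 0.049) at 20 months and -0.67 ± 0.38 (adjusted p = 0.28) at 28 months. Its call at 20 months held in 9 of 20 alternative settings. Timp1 lies within Syn1, which had 0 to 6.91 normalized counts.

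The summed levels of the classes were compared as normalized counts per kb, without a test. The Mmp sum ranged from 1407 to 2013 in 2-m, from 957 to 1080 in 20-m and from 1046 to 1213 in 28-m muscle. The Timp sum was 3222 to 3797, 3335 to 3427 and 2870 to 3348. The sum over TIMPs divided by the sum over MMPs was 1.80, 2.29 and 2.03 in the 2-m libraries, 3.09, 3.58 and 3.34 in the 20-m libraries and 2.74, 2.998 and 2.58 in the 28-m libraries. These ratios did not overlap between the ages, with the 28-m muscle between the others. The highest Mmp sum and the lowest ratio were those of the first 2-m library, where marrow and bone markers were high. Without Mmp8, Mmp9 and Mmp13 its Mmp sum was 1580 in place of 2013 and its ratio 2.29 in place of 1.80. The ratios without these 3 genes, left out after their values were seen, were 2.06 to 2.35 at 2 months, 3.11 to 3.66 at 20 months and 2.65 to 3.10 at 28 months, still with no overlap but with the upper 28-m and lower 20-m values close. The ratio is one of transcripts and says nothing of active enzyme.

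**Figure D4:**
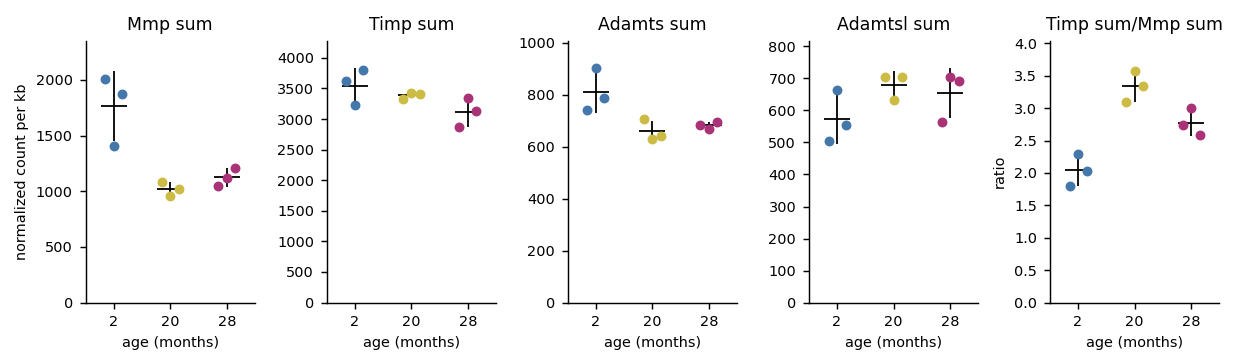
Sums over the Mmp, Timp, Adamts and Adamtsl genes in normalized counts per kb of transcript, and the Timp sum divided by the Mmp sum, in each library by age (points, with mean and SD, n = 3). The ratio lies between 1.80 and 2.29 at 2 months, 3.09 and 3.58 at 20 months and 2.58 and 2.998 at 28 months.

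Between 28 and 20 months no member was called, beside a background of 0.379% of all tested genes. At an unadjusted p under 0.05 there were 6 members (Mmp3, Timp3, Adamts7, Adamts9, Adamts10 and Adamts20), beside a background of 10.6% of all tested genes, and edgeR and DESeq2 on the recovered reads each called 0. The lowest adjusted p was 0.22, for Adamts20, whose log2 fold change was 0.68 ± 0.20. The median log2 fold change of the tested members was 0.19, and it was 0.00 over all tested genes. By the criterion of the study's methods (more than 2-fold, unadjusted p under 0.05), 8 members were called at 20 months (background 5.17%), 5 at 28 months (background 5.14%), all lower, and 1 between 28 and 20 months (Adamts7, higher, background 1.30%). Adamts7 shares exon sequence with Tbc1d2b on the opposite strand.

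Of 23 genes that act beside these enzymes (activators, other inhibitors, procollagen C-proteinase and its enhancers), 20 were tested, and 6 fell at 20 months and 7 at 28 months, beside backgrounds of 7.12% and 6.24% lower over all genes. The largest changes at 20 months were those of Ctsk (cathepsin K, log2 fold change -1.86 ± 0.34, limma adjusted p = 0.0034), Pcsk5 (a proprotein convertase, -1.22 ± 0.23, adjusted p = 0.0035) and Pcolce (the enhancer of procollagen C-proteinase, -1.09 ± 0.16, adjusted p = 0.00063). At 28 months the largest among the called genes were Pcsk5 (-1.47 ± 0.23, adjusted p = 0.0011), Ctsk (-1.29 ± 0.34, adjusted p = 0.026) and Reck, a membrane inhibitor of MMPs (-0.95 ± 0.19, adjusted p = 0.0065). Without the first 2-m library, 6 fell at each later age, beside 565 and 496 lower of all 13183 tested genes. With all libraries numbered 3 left out, 4 fell at 28 months, beside 305 of all tested genes. With libraries rescaled to 1 common sum 2 fell at each age, beside 163 and 146 of all tested genes. Ctsk, which osteoclasts make in quantity, had 798 normalized counts in the first 2-m library, where bone markers were high, against 291 and 285 in the other young ones and 79.3 to 192 at the later ages.

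Of 23 genes of matrix proteins that these enzymes cut, 21 were tested, and 12 fell and 1 rose at 20 months, with a median log2 fold change of -0.72, beside backgrounds of 7.12% lower and 9.43% higher. At 28 months 10 fell and 1 rose, with a median of -0.64, beside 6.24% and 7.53%. Col2a1, Acan and Fbn2 reached a mean of 10 at 2 months only, which favours a fall, and of the other 18 genes, a split made after the values were seen, 10 fell and 1 rose at 20 months (median -0.60) and 9 fell and 1 rose at 28 months (median -0.49). Col1a1, a chain of collagen I, had 34207, 11798 and 29946 normalized counts at 2 months, 2258, 1711 and 2170 at 20 months and 1979, 2190 and 2657 at 28 months. At 20 months Col1a1 had a log2 fold change of -3.50 ± 0.30 and its partner chain Col1a2 one of -3.13 ± 0.29, and at 28 months the values were -3.34 ± 0.30 and -3.08 ± 0.29. Col2a1, the cartilage collagen, had the largest change, -5.01 ± 0.98 (limma adjusted p = 0.0047) at 20 months and -4.07 ± 0.98 (adjusted p = 0.016) at 28 months, but it passed the filter on low values through its 2-m libraries. Its value was 825 normalized counts in the first 2-m library against 31.7 and 97.5 in the other young ones. The gene that rose was Thbs1 (thrombospondin-1) at 20 months and Vwf (von Willebrand factor) at 28 months, with log2 fold changes of 1.26 ± 0.29 and 0.33 ± 0.09. Vcan (versican), Dcn (decorin) and Comp (cartilage oligomeric matrix protein) were not called at either age. Without the first 2-m library, 11 fell and 1 rose at 20 months, beside 565 lower and 842 higher of all 13183 tested genes. At 28 months 9 then fell, beside 496 lower genes. With libraries rescaled to 1 common sum, 7 fell at each age, beside 163 and 146 lower of all tested genes.

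Cell markers that moved beside the members were summed over whole lists. The 8 fibroblast markers, all detected at every age, summed to 11150 to 14070 normalized counts at 2 months, 7859 to 8334 at 20 months and 8541 to 10520 at 28 months, and 4 of 8 fell at 20 months and 2 of 8 at 28 months. The 6 tendon markers summed to 13090 to 33180, 14330 to 17520 and 10150 to 13460, and 2 of 6 fell at 20 months and 3 of 6 at 28 months. The 5 adipocyte markers summed to 1547 to 4433, 491 to 764 and 613 to 1516, and 4 of 5 fell at 20 months and 2 of 5 at 28 months. The 7 macrophage markers in the table summed to 3433 to 4909, 3116 to 3228 and 3279 to 4530, and 3 of 7 fell at 20 months and 0 at 28 months. The 5 Schwann cell markers summed to 5627 to 7252, 3638 to 5169 and 4664 to 6904, and 2 of 5 fell at 20 months and 0 at 28 months. Of the 8 muscle fibre markers 2 rose at both later ages, the slow-fibre genes Myh7 (log2 fold change 3.06 ± 0.68 at 20 months, limma adjusted p = 0.0096) and Tnnt1 (2.71 ± 0.61, adjusted p = 0.010). Myh7 had 2773, 44701 and 8400 normalized counts at 2 months and 62731 to 112463 at the later ages. None of the 6 endothelial markers was called at either age, and 1 of 6 mural markers fell at 20 months and 0 at 28 months. Over all tested genes 7.12% were lower and 9.43% higher at 20 months, and 6.24% and 7.53% at 28 months. The part of these cell types and fibre types in the levels of the members was not tested.

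The MBD-seq table gives capture of methylated DNA at the starts of the same genes, as the mean normalized count of the 500-bp bins within 500 bases of the start. There was 1 pool for each age, so these values have no replicate and no test, and the muscle columns do not say which of the repeated captures they hold. In muscle the median over the 51 members went from 3.94 in the 2-m pool to 3.37 in the 20-m and 7.44 in the 28-m pool, beside 5.16, 5.33 and 8.71 over 21434 genes. The median log2 difference between 28 and 2 months was 0.80 over the members and 0.47 over all genes. It was 0.38 and 0.22 with 1000 bases either side of the start, and 1.25 and 0.89 with all libraries set to 1 total. In muscle this difference was 1.12 over the 10 members of the chromosome 9 cluster and 0.73 over the 41 others. With 1000 bases either side these values were 0.36 and 0.38. Adamts2 had 0.30, 0.00 and 1.27 at its start in muscle, values close to 0 that rest on few reads, and Mmp2 had 2.43, 1.12 and 4.89. The start of Timp4 had 17.6, 12.3 and 12.1.

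In T cells the median capture at the members' starts was 6.43, 15.8 and 20.7 at 2, 20 and 28 months, against 6.09, 7.71 and 8.37 over all genes. The median of the members' own log2 differences between 28 and 2 months was smaller than these medians imply, 0.63, beside 0.19 over all genes. It was 0.46 and 0.22 with 1000 bases either side and 0.31 and 0.00 with all libraries set to 1 total. The 41 members outside the cluster had medians of 6.77, 18.7 and 24.7 and a median log2 difference of 1.40 at 28 months. The 10 members of the cluster had 5.58, 6.29 and 4.85 and a median log2 difference of -0.18. When all libraries were set to 1 total, the log2 differences were 1.07 outside the cluster and -0.34 within it. The highest value at 28 months was that of Adamts20, with 8.12, 53.9 and 114 at the 3 ages. The part of CpG content in these differences was not tested.

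**Figure D5:**
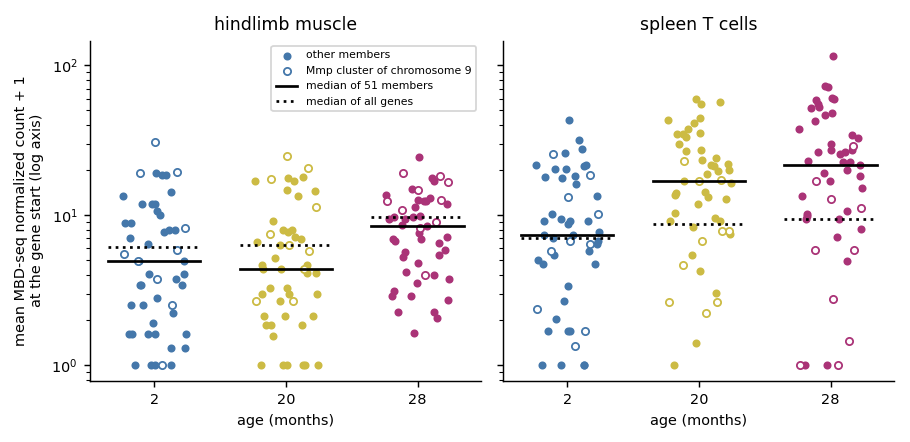
Mean MBD-seq normalized count plus 1 (log axis) at the start of each of the 51 members in muscle and in splenic T cells by age, with 1 pool per age, open points for the Mmp cluster of chromosome 9, solid lines for the median of the members and dotted lines for that of all genes. In T cells the members' median goes from 6.43 to 15.8 and 20.7, while that of all genes goes from 6.09 to 7.71 and 8.37.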

How the data were processed

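The RNA values are signal that the authors deposited: reads counted per refSeq gene with htseq-count (intersection-strict) after Trim Galore and alignment to mm10 with Hisat2, divided by 1 DESeq2 size factor for each library. The submitters' processing notes name TopHat. Use of strand in counting is not given in the sources used here, so a gene and an overlapping gene on the other strand may share reads. The deposited MBD-seq signal holds reads per 500-bp bin (Bowtie2, bedtools), scaled likewise. All nonzero RNA values (100%) were whole multiples of 1 step per library (tolerance 0.001 reads), from which reads were recovered. Intervals from counts of 0 cover counting error only.

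Genes with a mean of at least 10 normalized counts were tested in R 4.3.3 with limma 3.58.1 (trend) on log2(value + 1), with age as the only term and all 9 libraries in 1 fit, and Benjamini-Hochberg adjustment over 13183 genes. Fold changes are on that scale, which understates the change of low genes. edgeR 4.0.16 and DESeq2 1.42.0 on recovered reads were alternatives. The method was tested on simulated data. Lengths are those of the longest curated RefSeq transcript, and positions those of RefSeq GRCm38.p6. Described in full were members called in any comparison, the 4 Timp genes, Mmp2, Mmp9 and Mmp14, and for the pathway lists the 3 largest called changes. Members and lists were chosen with earlier results of these data known. MBD-seq values used a pseudocount of 1. For 1 gene of the pathway lists, values are not reported here.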

Additional observations from a re-analysis of the deposited data

How the results depend on the processing

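At 20 months the 14 called members became 5 with libraries rescaled to 1 common sum (Mmp9 with Adamts2, Adamts12, Adamts20 and Adamtsl2), beside 2.95% of all genes. They became 8 without the libraries numbered 3 (chosen after seeing the data), beside 8.34%. By the criterion of more than 2-fold and an unadjusted p under 0.05 there were 8, beside 5.17%. Leaving out 1 replicate gave 8 to 14 (22.2% to 38.9% of the tested members), beside 8.22% to 16.9% of all genes. At 28 months the 9 became 5 (beside 3.16%), 2 (beside 5.26%) and 5 (beside 5.14%). Leaving out 1 replicate gave 4 to 9 there (11.1% to 25%), beside 7.3% to 14%. Between 28 and 20 months 0 became 1 with the same sum (Adamts8, lower, beside 0.235% of all genes) and 1 by that criterion (beside 1.30%). With a replicate block the counts were 15 (41.7%, against 22.6% of all genes), 12 (33.3%, against 19.1%) and 0 (against 1.08%). Deviations of libraries sharing a number correlated by -0.04 to 0.16, so the numbers were not used as pairs. In 13 of 18 cases, however, the best match at another age had the same number. With the same sum, calls over all genes went from 1243 higher and 938 lower to 226 and 163 at 20 months and from 993 and 823 to 271 and 146 at 28 months, and the share that were higher moved from 54.7% to 65.0% at 28 months and from 56.0% to 71.0% between 28 and 20 months. The cause of these moves was not tested. Of 482 alternative values for called members, 390 kept the call, 92 lost it and 0 reversed. The median capture difference in muscle, 0.80 (0.47 over all genes), was 0.38 (0.22) with 1000 bases either side, 1.25 (0.89) with the same sum and 0.97 (0.54) with a pseudocount of 0.25. With 3 mice per age, the spread rests on few libraries, and Mmp8 and Mmp13, each high in 1 library, had standard errors above 1.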

Other observations

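The ADAM genes, of the same metalloproteinase superfamily, only some of which encode membrane proteases that shed cell-surface proteins, were looked at after the values of the other genes were known. Of 33 such genes, 12 were tested. At 20 months Adam22 rose (log2 fold change 0.65, limma adjusted p = 0.049) and Adam23 fell (-1.02, adjusted p = 0.014). With 1 of 12 in each direction, beside 9.43% higher and 7.12% lower over all tested genes, these shares are near the background. At 28 months and between 28 and 20 months 0 were called by limma. The sheddases Adam10 and Adam17 had log2 fold changes of 0.26 and -0.11 at 20 months and were not called.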
